A study of Mus musculus with 12 samples.

Results

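MiR-143 and miR-145 were described in pancreatic islets of adult mice born to mothers on a low-protein diet (LP0.5) or on a control diet in pregnancy. The assays of these miRNAs were found by name, without species prefix and strand ending and leaving out starred strands, which gave 3 spots of the 846 on the panel. MiR-143 had 2 assays, numbers 002249 and 000466, and miR-145 had 1 assay, number 002278. All of them carry the human prefix on a panel run with mouse RNA. The starred strand of miR-145 was left out by this rule and has no ratio listed.

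By the labels there were 6 samples of LP0.5 and 6 of Control, each of hand-picked islets from male C57BL/6 offspring aged 2 to 3 months, cultured overnight before RNA isolation. All samples share that strain, sex, age range and overnight culture, and they differ in the diet of the mother. Their total RNA was assayed by TaqMan real-time PCR, in which a fluorescent probe reports the cycle at which a target becomes visible. The comparison asks which miRNAs of adult islets differ after exposure to the low-protein diet in the womb.

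MiR-143 and miR-145 are small RNAs that dampen the output of target mRNAs, and they are cut from the same primary transcript. The gene table places both genes, Mir143 and Mir145a, inside the long noncoding RNA Carmn, formerly Mir143hg. They are known as the leading miRNAs of smooth muscle cells, pericytes and fibroblasts, where serum response factor with myocardin, and TGF-beta signalling, switch the transcript on. MiR-145 represses KLF4 and KLF5, factors that hold smooth muscle cells in an immature state, and miR-143 represses ELK1, a factor that drives their proliferation. In liver of obese mice, miR-143 is also known to impair insulin signalling through the oxysterol-binding protein ORP8. In an islet preparation these miRNAs are usually attributed to vessel walls and stroma and not to the hormone-secreting cells.

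The measure is 1 linear ratio per spot, headed in the authors' deposited table as LP0.5 against Control, so that LP0.5 islets are the higher ones, by that heading, where it exceeds 1. The table gives no value per sample and no error, so no ratio here has a replicate check, and none has a p-value. A ratio set by 1 sample cannot be told apart from a ratio shared by all samples of a group. The second deposited table has 12 per-sample columns that match no sample label and so were not analysed here. Even on sight, however, 1 of those columns stood far from the others at the miR-145 assay, and 1 did so at assay 000466 of miR-143. No limit was set for this, and how many other spots show such a column was not counted. Whether 1 sample sets the ratio of either assay was not tested. The direction rests on the heading alone: the study is known for naming miR-199a-3p among the miRNAs raised in low-protein islets, while the authors' deposited table lists it at 0.422. In bulk islet RNA, fewer cells of a type and less RNA per cell cannot be told apart.

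The 3 assays pointed in different directions. The authors' deposited table gives 2.66 for miR-145, that is 2.66-fold higher in LP0.5 than in Control islets by the heading, or 0.376 if the heading's direction were turned. For miR-143 the authors' deposited table listed 1.11 with assay 002249 and 0.190 with assay 000466. The transcript's products were thus listed above 1, close to 1 and 5.26-fold below 1, and with the direction turned the pair of miR-143 assays would stand at 0.901 and 5.26. On the log2 scale these ratios were 1.41 for miR-145, and 0.15 and -2.40 for the pair of miR-143 assays.

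Both miR-145 and 1 of the miR-143 assays were at least 1.5-fold from 1, a distance that was common on the panel. Of the 566 miRNA spots with a ratio, 35.3% lay at least that far from 1, 18.6% above it and 16.8% below it. The median ratio of these spots was 1.01. These shares include extreme ratios, such as 3.13e+07 for 1 miR-673 assay in the authors' deposited table. How far assays near the detection limit widen the shares was not tested. Being past this limit therefore does not set miR-145 or miR-143 apart from the panel.

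The panel was split by block into assay sets named A and B, each of 8 blocks, and ratios were wider spread in the B set. In the A set, which holds miR-145 and assay 002249 of miR-143, 28.9% of 304 miRNA spots were at least 1.5-fold from 1. In the B set, which holds assay 000466 of miR-143, the share was 42.7% of 262 spots. MiR-145 was exceeded by 24 A-set spots, and 46 spots (15.1%), miR-145 included, were as far from 1 as it was in either direction. The A-set assay of miR-143 lay within the middle of the distribution, with 100 spots above it and 202 below. The B-set assay of miR-143 had 18 spots below it, and 37 spots (14.1%), itself included, were as far from 1.

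**Figure D1:**
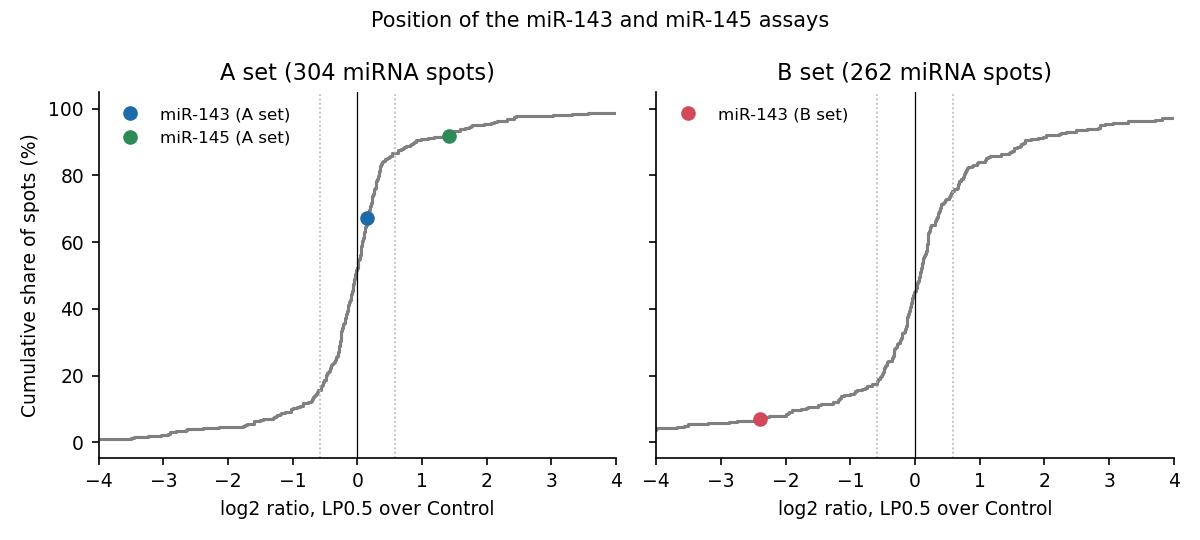
Cumulative share of miRNA spots (vertical axis, percent) against the log2 ratio of LP0.5 over Control (horizontal axis), for the A set (304 spots) and the B set (262 spots), with dotted lines at 1.5-fold and axes that end at 4 in either direction, beyond which lie 7 A-set and 18 B-set spots. MiR-145 sits at 1.41 on the upper shoulder of the A-set curve, A-set miR-143 at 0.15 on its steep middle, and B-set miR-143 at -2.40 on the lower tail of the B-set curve.

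The 2 assays of miR-143 differed by 5.84-fold, or 2.55 on the log2 scale. Across the panel, 38 miRNA names had a pair of assays with ratios, and their median difference was 1.31-fold, with the middle part of the differences from 1.15-fold to 1.90-fold. Only the pairs of miR-673 and miR-489 lay farther apart than that of miR-143, so it ranked 3 of 38. Names were matched without species prefix. The miR-673 and miR-489 pairs each join a mouse-prefixed and a rat-prefixed assay, whereas both miR-143 assays carry the human prefix. Whether the assays of a mixed pair share a target was not checked here. The assays of a name lay on opposite sides of 1 for 16 pairs, miR-143 among them. For 13 pairs, miR-143 again among them, 1 assay was at least 1.5-fold from 1 and the other was not.

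The widest gaps between assays of a name were across sets. The 7 widest pairs, miR-143 included, each joined assays of different sets, and the widest of the 12 pairs within a set differed by 2.25-fold. The gaps across sets went both ways. Of the 26 pairs with 1 assay in each set, the A-set assay was the higher one in 13, as for miR-143, and the B-set assay in the other 13. The median difference of A minus B over these pairs was -0.0018 on the log2 scale. How the pair of miR-143 assays differ in design is not given in the sources used here.

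**Figure D2:**
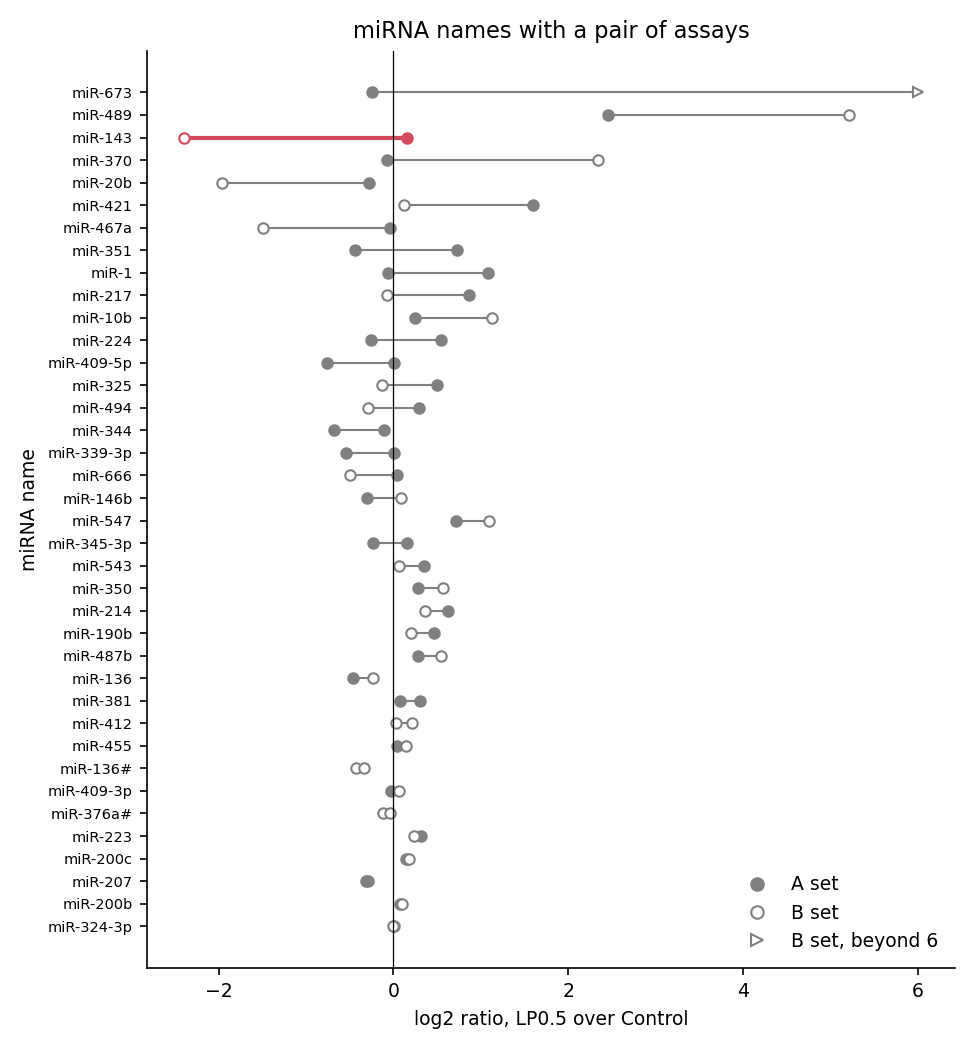
Log2 ratio of LP0.5 over Control (horizontal axis) for each of the 38 miRNA names with a pair of assays (vertical axis), ordered by the distance between them, with filled points for the A set and open points for the B set. MiR-143, in red, spans 0.15 to -2.40 and is the third widest, while 1 miR-673 assay lies off the scale and is drawn as an arrow at 6.

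MiR-145 and miR-143 were also far apart from each other. MiR-145 exceeded miR-143 by 1.26 on the log2 scale (2.39-fold in the ratio) when the A-set assay of miR-143 was taken. Both of these assays lie in the A set. With the B-set assay the difference was 3.81, and with the mean of both assays it was 2.53.

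Other miRNA genes lying near each other were mostly closer in ratio. The genes were paired in order of position within 10 kb, skipping any gene without a matched ratio, so some pairs have another miRNA gene between them. Strand was not checked, and copies of a gene took the value of their panel name. A pair is thus not always made from 1 transcript. Among 124 other such pairs, the median difference was 0.45 on the log2 scale, and the middle part ran from 0.20 to 1.38. Of these pairs, 34 were farther apart than miR-145 and A-set miR-143, and 7 were farther apart than miR-145 and B-set miR-143. The other genes were each entered by the mean of all their unstarred assays, whereas these counts take 1 assay of miR-143. By the same mean, miR-145 and miR-143 were 2.53 apart, past the upper end of that middle part. Where both neighbours were measured in 1 set, 20 of 69 pairs were farther apart than miR-145 and A-set miR-143. Neighbouring pairs share genes within clusters, and the counts are a description with no test.

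The mouse small RNA controls in the same blocks were listed from 0.934 to 1.56. In the block of miR-145 the authors' deposited table listed U6 at 1.00, U87 at 1.04, snoRNA202 and snoRNA135 both at 1.15, and Y1 at 1.21. In the block of B-set miR-143 it listed U87 at 0.934, U6 at 1.02, snoRNA202 at 1.06, snoRNA135 at 1.20 and Y1 at 1.37, again from the authors' deposited table. In the block of A-set miR-143 the authors' deposited table listed U6 at 0.995, snoRNA202 at 1.10, U87 at 1.11, Y1 at 1.30 and snoRNA135 at 1.56, the last being the highest of the 16 snoRNA135 spots. None of these mouse controls was as far from 1 as miR-145 or B-set miR-143, whereas 3 of the 5 controls beside A-set miR-143 were listed above it.

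Repeated spots of a control gave a scale for measurement spread. The 95th percentile of their distance from the control's own median was 1.37-fold over 80 spots. A single spot could stray much farther: the authors' deposited table gives 0.133 for 1 B-set U87 spot, farther from 1 than either miR-145 or B-set miR-143. The ratios of miR-145 and of B-set miR-143 were farther from 1 than the 95th percentile, and that of A-set miR-143 was nearer. The controls are other assays, and their repeats do not carry the spread between animals.

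The panel also carries the plant miRNA ath-miR159a, which has no mouse target. Beside B-set miR-143 the authors' deposited table listed it at 3.01, within its range of 2.59 to 3.37 over the 8 B-set spots. It was listed above 1 there and miR-143 below 1. In the blocks of miR-145 and of A-set miR-143 it has no ratio listed. Its part in these results was not tested.

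The miRNA spots around the members were centred near 1. In the block of B-set miR-143 the median of 37 miRNA spots was 0.983, and 1 spot was listed below miR-143. Around miR-145 the median of 42 spots was 1.04, with 4 spots above miR-145. Around A-set miR-143 the median of 29 spots was 0.935, with 10 spots above it and 18 below.

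The listed ratios are relative to U6, because the U6 spots of each set averaged 0 on the log2 scale. Set against other small RNAs of the same set, miR-145 stayed above 1, from 2.22 with snoRNA135 to 2.43 with U87. B-set miR-143 stayed below 1, from 0.133 with Y1 to 0.239 with U87. The B-set U87 mean includes 1 outlying U87 spot, itself listed at 0.133, which pulls the U87 end of this range towards 1. A-set miR-143 moved across 1: it was 1.01 with U87, 1.00 with snoRNA202, 0.938 with Y1 and 0.927 with snoRNA135. Its direction therefore flips with the reference, while those of miR-145 and of B-set miR-143 did not flip with any reference tried. On the log2 scale, the references moved miR-145 by at most 0.26 and B-set miR-143 by at most 0.51. Such moves are too small to turn log2 ratios of 1.41 and -2.40, so the references could not test these directions.

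**Figure D3:**
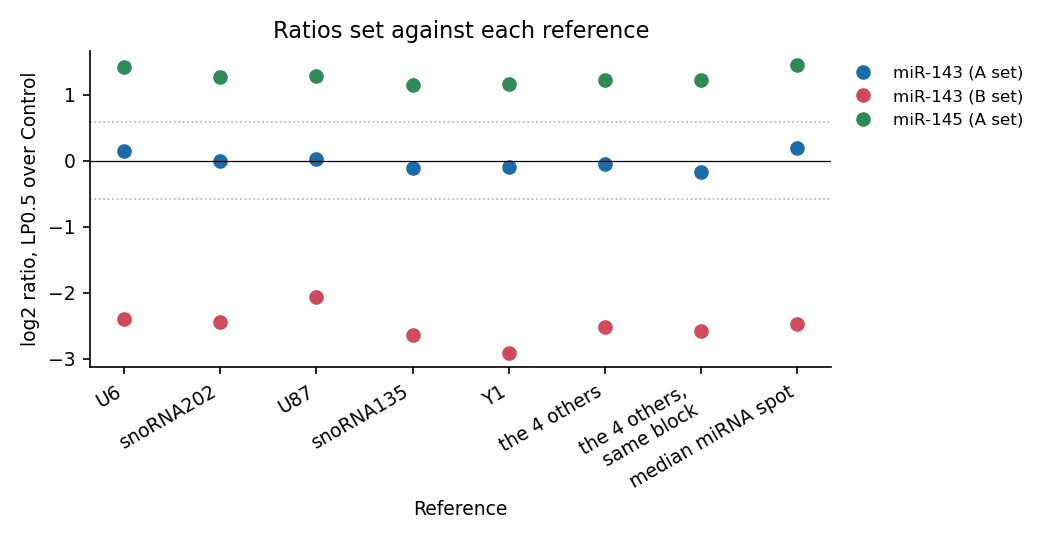
Log2 ratio of LP0.5 over Control (vertical axis) of the 3 assays under each reference (horizontal axis), where "the 4 others" means snoRNA135, snoRNA202, U87 and Y1 together, with dotted lines at 1.5-fold. MiR-145 stays between 1.15 and 1.45, A-set miR-143 between -0.18 and 0.19, and B-set miR-143 between -2.91 and -2.07. The value of -2.07 is set against U87, whose B-set mean includes 1 outlying spot.

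The other miRNAs of mesenchymal cells were listed on both sides of 1. The list of fibroblast, pericyte, smooth muscle and stellate cell miRNAs has 19 names, miR-143 and miR-145 included, and all 19 had a ratio, taken as the mean on the log2 scale where a name had several assays. MiR-143 entered by its mean, 0.459, and so counted as past the limit below 1. Of these, 3 were at least 1.5-fold above 1, 4 were at least 1.5-fold below 1 and 12 lay between, which makes 36.8% past the limit against 36.4% of all 528 miRNA names. The list's median ratio was 0.915, against 1.01 over all names. Without miR-143 and miR-145, 2 of 17 were past the limit above 1 and 3 below.

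MiR-199a-5p and miR-199a-3p, strands of a hairpin induced in activated fibroblasts, stood at 0.403 (5p) and 0.422 (3p) in the authors' deposited table, while their relative miR-199b was listed there at 7.14. MiR-214, made from the same transcript as a miR-199a copy, was listed at 1.55 by its A-set assay and at 1.28 by its B-set assay, as the authors' deposited table gives them. MiR-145 and, at 1.11, A-set miR-143 stood above 1 like miR-199b and miR-214, and B-set miR-143 stood below 1 like miR-199a. With 9 names of the list above 1 and 10 below, any ratio shares its side with some of them. MiR-125b, abundant in fibroblasts, stood at 0.543 in the authors' deposited table. MiR-10b, a Hox cluster miRNA, counted as past the limit above 1 by the mean of its assays, for which the authors' deposited table gives 1.19 (A set) and 2.18 (B set).

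The unstarred strands of the miR-29 family, which represses collagens and other matrix genes, were near 1. The authors' deposited table listed miR-29a at 1.04, miR-29c at 0.905 and miR-29b at 0.787. The family's starred strands, which are not in the list, ran from 0.149 for miR-29b-1 to 1.60 for miR-29b-2. MiR-21, which is raised in activated fibroblasts, stood at 0.822 in the authors' deposited table. MiR-195 and miR-497, neighbours that restrain the cell cycle, were listed there at 0.823 and 1.12. The authors' deposited table gives 1.17 to 1.22 for miR-10a, miR-99a and miR-100, 0.915 for miR-22 and 0.696 for miR-152.

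**Figure D4:**
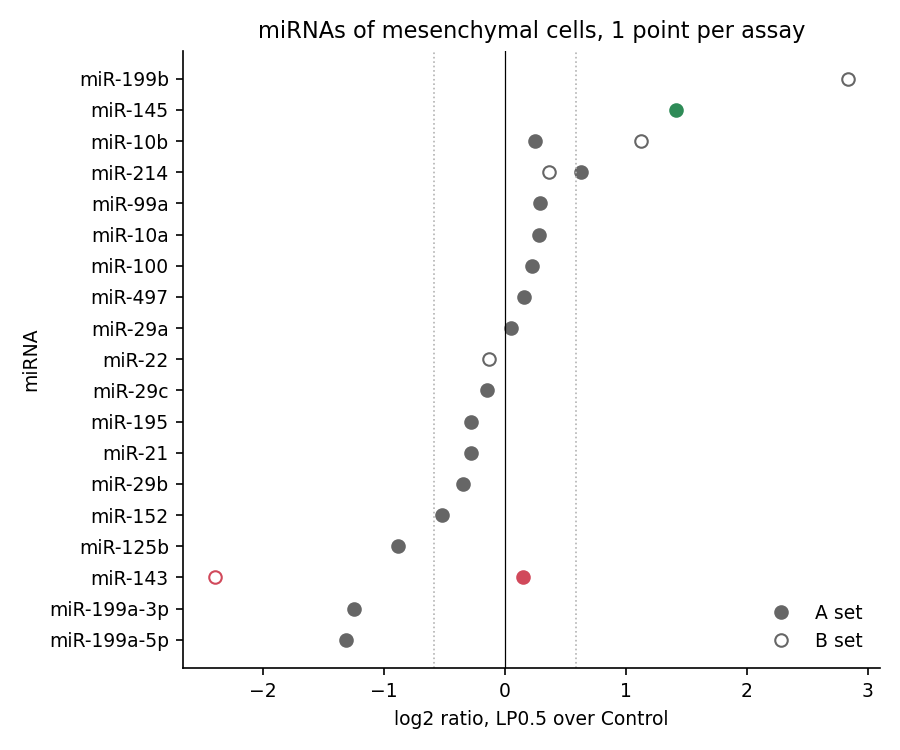
Log2 ratio of LP0.5 over Control (horizontal axis) for the 19 miRNAs of mesenchymal cells (vertical axis, ordered by the mean of their assays), 1 point per assay, filled for the A set and open for the B set, with dotted lines at 1.5-fold. MiR-145 (green, 1.41) is second from the top behind miR-199b, and the miR-143 assays (red) lie at 0.15 and -2.40.

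Lists for the other cell types of an islet preparation showed no single direction either. Against 36.4% of all names past the 1.5-fold limit, the shares were 50% of 6 muscle, 20% of 5 endothelial, 0% of 3 exocrine, 57.1% of 7 blood cell and 11.1% of 9 islet miRNAs, each name counted by the mean of its assays. Of the muscle miRNAs, 1 was past the limit above 1 and 2 below, and the authors' deposited table listed miR-133a, a muscle-fibre miRNA, at 1.98 but miR-206 at 0.196 and miR-499 at 0.131. The endothelial one was miR-126-5p, below 1. Among exocrine miRNAs, miR-217 was within the limit by its mean, though the authors' deposited table gives 1.83 for its A-set assay and 0.950 for its B-set assay. Of the blood cell miRNAs with a ratio, miR-150 and miR-155 were past it above 1, and miR-142-5p and miR-451 below. Of the islet miRNAs, which include miR-375, the main islet miRNA, only miR-7b was past the limit, below 1. Ratios do not give levels, so the labelled tissue was not checked here against the abundance of its markers, and the part of cell content in the miR-143 and miR-145 ratios was not tested.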

How the data were processed

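Per the labels, islet RNA of 6 LP0.5 and 6 Control samples was quantified by RT-PCR with FAM-labelled TaqMan probes. The submitters' processing notes name limma; what it was used for, and in which version, is not given in the sources used here. For the ratios, the authors deposited 1 column of linear ratios, headed as LP0.5 against Control per the file headers, with 190 of 846 spots without a value. A second table gave assay numbers and names. It also holds 12 columns of per-sample values whose names match no sample label, so they were not used here, and the planned limma and permutation tests, which need them, were not run. The number of samples limits the precision, which the ratios do not show.

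Ratios were turned into log2, and spots were put in the A or B set by their block. The sets' U6 means, pairs of assays, list members and controls were computed with Python 3.11.15, numpy 2.4.6 and pandas 2.3.3, and the figures were drawn with matplotlib 3.10.9. The 1.5-fold counts and the shift of the snoRNA135, snoRNA202, U87 and Y1 reference were tested on simulated data, and the other calculations were not. Neighbouring genes, within 10 kb and among genes with a matched ratio, were taken from RefSeq genes on GRCm38.p6 to learn their order only, without regard to strand. List names were matched to panel names without prefix, taking miR-7 for miR-7a, miR-199a for miR-199a-5p, miR-126 for miR-126-3p and its starred assay for miR-126-5p. Named were all assays of the members, all mesenchymal list miRNAs, the controls and, from other lists, miRNAs at least 1.5-fold from 1. The members and lists were chosen with earlier results of these data known. MiR-375 and the widest pairs were named after their values were seen.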

Additional observations from a re-analysis of the deposited data

How the results depend on the processing

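No paired analysis was possible because the deposited ratios carry no per-sample values, and leaving out replicates and a filter on values at the detection limit were not run either, since the unmatched per-sample columns were not used. Single-control references, the same-block reference, the reference without 1 outlying U87 spot and the list without miR-143 and miR-145 were chosen after seeing the data. On the log2 scale, B-set miR-143 moved by more than the SD of repeated control spots (0.38) only with Y1 as reference (-2.91). MiR-145 and A-set miR-143 moved by less under every reference tried. That SD includes the outlying U87 spot, listed at 0.133, which widens it, so a move below it is a weak mark of stability. Every reference except the same-block one shifts all spots of a set by the same amount, so such moves are not particular to the members. Taken as 1 value, the mean of the assays, miR-143 was at -1.12; this turned to 0.15 with the A-set assay alone and was -2.40 with the B-set assay alone. The difference of miR-145 minus miR-143 was 1.26 with the A-set assay and 3.81 with the B-set assay, against 2.53 with their mean. The assay of miR-143 thus decides its direction, and the cause was not tested. Adding starred strands raised the mesenchymal miRNAs at least 1.5-fold above 1 from 3 to 8 and those below 1 from 4 to 6, by construction over more spots. Counts of miRNA spots past that limit were smaller within a set by construction, 40 (above 1) and 48 (below) for A-set spots, 65 and 47 for B-set spots, against 105 and 95 in both. With snoRNA135, snoRNA202, U87 and Y1 as reference, which lowers A-set log2 ratios by 0.20 and B-set ones by 0.12, they were 91 and 130. The median log2 ratio of the mesenchymal list, -0.13 by name, was 0.10 by spot.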
